A study of Homo sapiens with 8 samples.

Results

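The 66 genes described here encode human serine protease inhibitors and kallikreins: 14 kallikreins (KLK), 9 SERPINA genes, 11 SERPINB genes, 9 other serpins, 6 SPINK genes, 3 SPINT genes and 14 genes with whey acidic protein (WAP) domains, which are PI3, SLPI and the WFDC genes. They were chosen by symbol alone, from 19775 genes measured on Affymetrix expression arrays, and 4 further symbols were left out as pseudogenes (SERPINA2, SERPINB9P1 and WFDC21P) or an antisense RNA (SPINT1-AS1). Other genes of these families whose probe sets carry no gene name in the annotation used were not analysed here. Each of 8 samples of human colorectal adenocarcinoma cells had been hybridised to its own array, 2 per group. HT29 spheres, labelled as first spheres, were grown in DMEM-F12 plus N2 Plus supplement, EGF at 10 ng/ml and bFGF at 10 ng/ml, and no serum is listed. HT29 parental cells, their comparison, were grown in DMEM with 10% fetal bovine serum, so the medium and growth as spheres cannot be told apart. A stable SW480 line labelled as expressing Snail and a stable SW480 line carrying the empty vector were both grown in high-glucose DMEM with 10% fetal bovine serum. The labels give neither the number of clones in each stable line nor whether partner arrays stem from separate cultures, so the p-values speak of array-to-array spread that may be only technical.

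Serpins are single-use inhibitors: the target protease cuts an exposed loop, the serpin folds around it, and both are trapped in a covalent complex. WAP, Kazal-type (SPINK) and Kunitz-type (SPINT) inhibitors instead plug the active site reversibly, and a few serpins, among them SERPINH1, SERPINB5 and SERPINF1, inhibit no protease at all. Kallikreins are secreted trypsin-like or chymotrypsin-like serine proteases that activate one another, best known from skin shedding and from the prostate. In the gut, such inhibitors hold back leukocyte and pancreatic proteases at the mucosal surface, and the Kunitz inhibitors control matriptase on the epithelial cell membrane.

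All values are log2 levels, and each gene is read by its brightest probe set. The array medians lay between 5.50 and 5.61. A level near or under them cannot tell a weak transcript from array background, and a difference or fold against such a level depends on that background. Of the 66 genes, 22 lay above every array median on all 8 arrays and 24 lay below every array median on all 8, among them 9 of the 14 WAP genes. SNAI1, which encodes Snail, averaged 6.35 ± 0.04 on the arrays labelled Snail and 6.35 ± 0.01 on the vector arrays (SD, n = 2 each), a log2 difference of 0.00 ± 0.15 (SE, limma adjusted p = 0.992), which goes against the label, and whether this probe set reads the introduced copy was not tested. The line is therefore called "the line labelled Snail", and every direction drawn from it rests on the label alone. In HT29, SNAI1 averaged 7.07 ± 0.20 in spheres and 6.01 ± 0.20 in parental cells (SD, n = 2 each). That was a log2 difference of 1.07 ± 0.15 (SE, limma adjusted p = 0.000318), and its part in the results was not tested. Colon epithelial markers were above every array median for 9 of 9 genes in HT29 spheres, 8 of 9 in HT29 parental cells (not CDH17), and 7 of 9 in both SW480 lines (not CDH17 or KRT20). Partner arrays of a group correlated at 0.991 to 0.995 over all genes. The parental pair was the least alike, with 200 genes at least 2-fold apart, against 10 to 19 in the other pairs. Probe sets for 18S ribosomal RNA averaged 6.75 ± 0.21 in the line labelled Snail and 5.35 ± 0.26 in the vector line, those for the BioC hybridisation control averaged 10.01 ± 0.06 in HT29 spheres and 8.37 ± 0.03 in parental cells (SD, n = 2 each), and the part of these differences in the results was not tested.

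In HT29 spheres, 17 of the 66 genes rose and 6 fell against parental cells (limma, adjusted p under 0.05 over all 19775 genes), and 43 did not pass. Over all genes 31.4% passed, 12.4% having risen and 19% fallen, against rises in 25.8% and falls in 9.09% of these genes. The median log2 difference was 0.25 over the 66 genes and 0.04 over all genes. At least 2-fold, 9 rose and 2 fell, against 3.16% and 7.08% of all genes, and the array values of 44 of the 66 genes (66.7%) did not overlap between the groups, as for 62.9% of all genes. Those 9 rises were PI3, SLPI and WFDC2 of the WAP inhibitors, 5 clade B serpins and SERPINE2, and the 2 falls were SERPINA3 and SERPINB1.

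PI3, or elafin, a secreted WAP inhibitor of neutrophil elastase and proteinase 3, had log2 levels of 12.27 and 12.34 in HT29 spheres, against 5.95 and 5.22 in parental cells. Both sphere arrays were far above and both parental arrays near the array medians, with no overlap. In bulk RNA such as this, more cells that make a transcript and more transcript per cell cannot be told apart. The log2 difference was 6.72 ± 0.24 (SE, limma adjusted p = 1.03e-07), or 105-fold against a parental level that cannot be told from array background, and a dimmer second probe set gave 5.37. SLPI, the secretory leukocyte protease inhibitor of mucosal surfaces, had log2 levels of 11.81 and 11.81 in spheres, against 8.19 and 7.77 in parental cells. Its groups did not overlap either, and its log2 difference was 3.83 ± 0.18 (SE, adjusted p = 5.68e-07, limma), or 14.3-fold. WFDC2, known as the ovarian cancer serum marker HE4, had log2 levels of 10.19 and 10.18 in spheres, against 8.82 and 9.14 in parental cells, a log2 difference of 1.21 ± 0.15 (SE, adjusted p = 0.000178, limma). Its dimmer probe sets differed by 0.27 and 0.13 (log2) and did not pass. WFDC12, named after its values were seen, was the other WAP gene that rose, by 0.62 (log2, adjusted p = 0.0053, limma), and no WAP gene fell. WFDC12, PI3, SLPI and WFDC2 stand in that order, with no other member between them, in a run of 14 members on chromosome 20. The run includes SPINT3 and leaves out WFDC1, which lies on chromosome 16. Other protein-coding genes lie between PI3 and SLPI (2) and between SLPI and WFDC2 (7). None of the other 10 members of the run passed in spheres. The main proteases that PI3 and SLPI restrain come from neutrophils, whose markers were above every array median for 1 of 6 genes (CSF3R) in all 4 groups, with a mean log2 level of the 6 per array of 4.80 to 4.88 in spheres and 4.41 to 4.66 in parental cells. ELANE, neutrophil elastase itself, averaged 4.31 in spheres and 4.22 in parental cells, below the array medians.

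**Figure D1:**
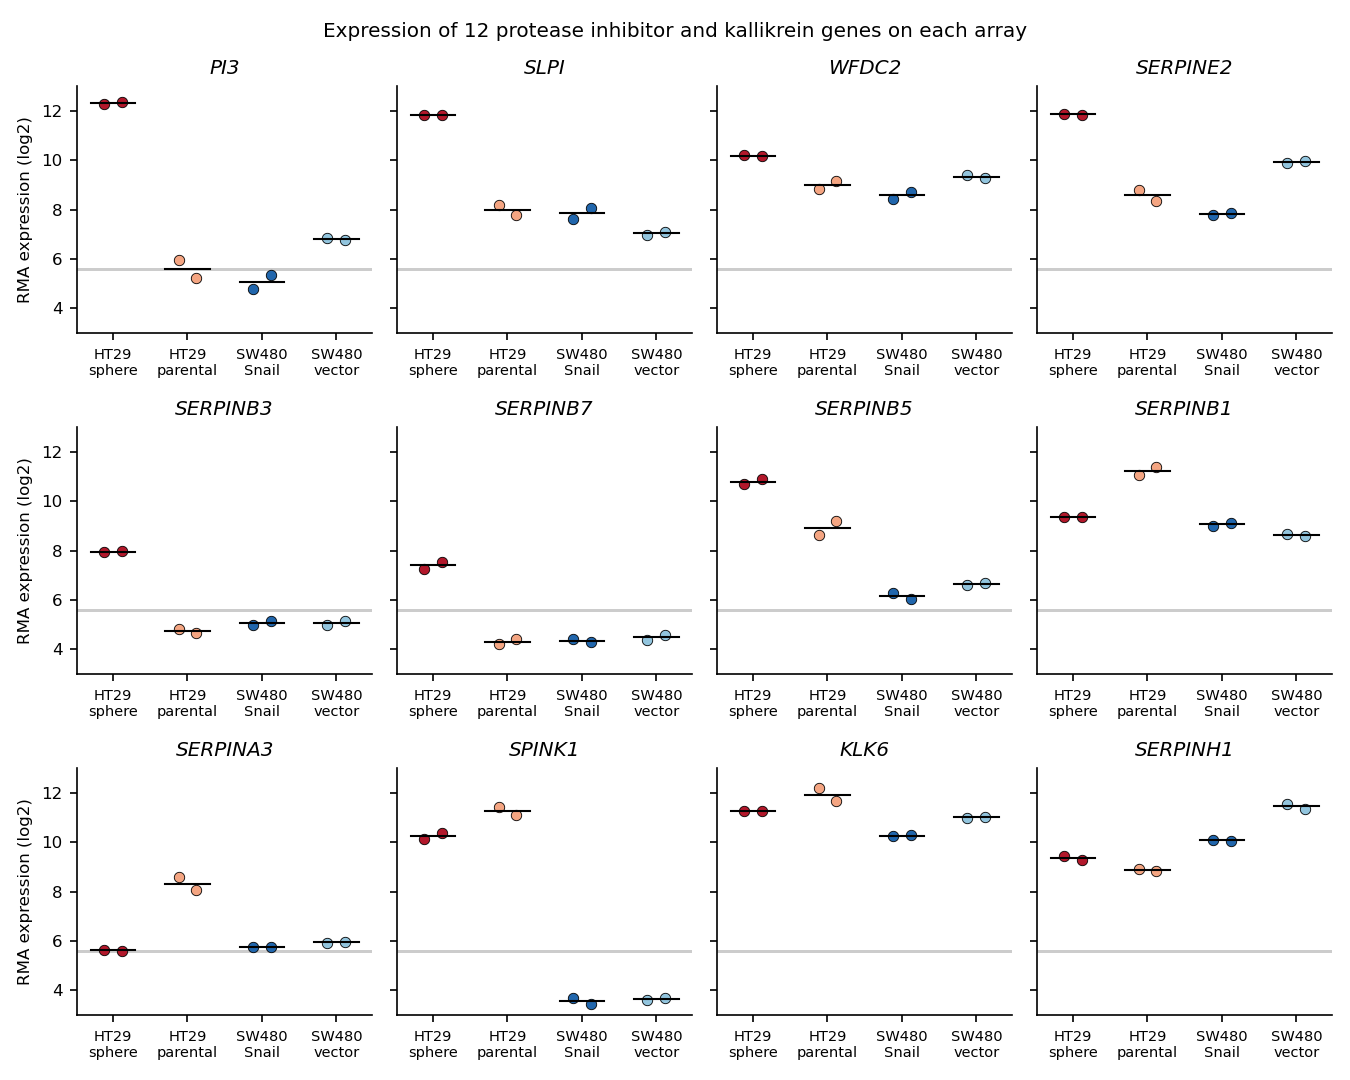
Log2 levels of 12 named genes on each array, with HT29 spheres left of HT29 parental cells and the line labelled Snail left of the vector line; the short lines are group means and the grey band is the range of the 8 array medians. PI3 sat at 12.27 and 12.34 in spheres and at 4.79 to 6.85 on the other 6 arrays, while SPINK1 was above 10 on all HT29 arrays and below 4 on all SW480 arrays.

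The intracellular clade B serpins split. Of 11, 5 rose, 1 fell and 5 did not pass in spheres. SERPINB3, squamous cell carcinoma antigen 1, which inhibits cysteine cathepsins, had log2 levels of 7.95 and 7.97 in spheres, against 4.81 and 4.66 in parental cells. SERPINB7, an epidermal serpin whose loss causes a palmoplantar skin disease, had log2 levels of 7.26 and 7.53 in spheres, against 4.22 and 4.40 in parental cells. Both were below all array medians in the parental cells and above them in the spheres, with log2 differences of 3.22 ± 0.13 (SE, adjusted p = 2.32e-07) for SERPINB3 and 3.09 ± 0.15 (SE, adjusted p = 5.75e-07, limma) for SERPINB7. SERPINB4, squamous cell carcinoma antigen 2, had log2 levels of 5.17 and 5.67 in spheres, against 3.20 and 3.26 in parental cells, a difference of 2.19 ± 0.16 (log2, SE, adjusted p = 7.38e-06, limma). SERPINB3 and SERPINB4 are near-identical paralogues, so probes may read both, and the split between them is uncertain. SERPINB5, or maspin, which inhibits no protease and is known from mammary and skin epithelium, had log2 levels of 10.68 and 10.88 in spheres, against 8.61 and 9.19 in parental cells. It rose by 1.88 ± 0.19 (log2, SE, adjusted p = 4.42e-05, limma), or 3.67-fold, without overlap, and the last of the 5, SERPINB8, an inhibitor of furin named after its values were seen, rose by 1.09 ± 0.24 (log2, SE, adjusted p = 0.00608, limma). The SERPINB8 call was lost without sphere array 2 (0.89, adjusted p = 0.060), and its other probe set gave 0.36 (log2, adjusted p = 0.098) and did not pass. Markers of stratified squamous epithelium were above every array median for 2 of 5 measured genes in spheres (KRT10 and DSG3) and 1 of 5 in parental cells (KRT10), and their mean log2 level per array was 6.39 to 6.47 in spheres and 5.78 to 5.91 in parental cells. Their part in the clade B values was not tested. KRT5, of the same list, averaged 5.53 in spheres and 5.09 in parental cells, near or below the array medians. In SW480 it averaged 12.79 in the line labelled Snail and 11.90 in the vector line.

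The 5 clade B genes that rose belong to a run of 9 neighbouring members on chromosome 18, in the order SERPINB5, SERPINB12, SERPINB13, SERPINB4, SERPINB3, SERPINB11, SERPINB7, SERPINB10 and SERPINB8 in RefSeq. None of the 9 fell in spheres. SERPINB10, SERPINB11, SERPINB12 and SERPINB13 did not pass and lay below all array medians on all 8 arrays. The 250 bases before the annotated starts of 4 of the genes that rose are shown because they are neighbours that moved together (RefSeq, GRCh38.p14, 5′ to 3′ on the strand of the gene). For the paralogue pair, at chr18:63661894-63662143 (minus strand) and chr18:63644257-63644506 (minus strand), capitals mark the 3 bases that differ, an identity of 98.8%. For SERPINB5, at chr18:63476708-63476957 (plus strand), and SERPINB7, at chr18:63775168-63775417 (plus strand), capitals mark the letters of an AP-1 motif, TGANTCA, and in SERPINB5 also a Snail E-box, CAGGTG, near the end.
SERPINB3: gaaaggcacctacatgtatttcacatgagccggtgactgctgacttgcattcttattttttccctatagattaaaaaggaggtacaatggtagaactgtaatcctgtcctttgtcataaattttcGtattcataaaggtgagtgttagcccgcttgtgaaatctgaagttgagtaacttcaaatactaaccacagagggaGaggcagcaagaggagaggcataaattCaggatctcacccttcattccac
SERPINB4: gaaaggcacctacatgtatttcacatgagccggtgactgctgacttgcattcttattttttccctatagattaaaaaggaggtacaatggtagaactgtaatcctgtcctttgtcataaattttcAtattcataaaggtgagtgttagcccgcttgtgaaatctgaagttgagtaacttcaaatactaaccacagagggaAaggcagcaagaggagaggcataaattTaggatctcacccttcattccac
SERPINB5: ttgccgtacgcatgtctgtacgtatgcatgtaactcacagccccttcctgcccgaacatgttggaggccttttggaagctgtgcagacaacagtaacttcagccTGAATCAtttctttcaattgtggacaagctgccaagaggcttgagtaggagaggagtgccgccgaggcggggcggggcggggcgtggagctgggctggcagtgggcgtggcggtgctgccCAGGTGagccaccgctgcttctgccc
SERPINB7: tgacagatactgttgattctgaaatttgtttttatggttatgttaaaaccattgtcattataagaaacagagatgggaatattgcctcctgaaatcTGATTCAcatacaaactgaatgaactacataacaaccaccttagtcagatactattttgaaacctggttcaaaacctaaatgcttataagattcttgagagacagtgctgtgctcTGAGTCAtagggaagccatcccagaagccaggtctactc
Searched on both strands, TGANTCA stood in 6.57% of all 35116 RefSeq windows of this length and in 8 of 72 windows (11.1%) of the 50 members that have one. Those 8 windows belong to 7 genes, SERPINB5, SERPINB7, SERPINB8, SERPINB12, SERPINB13, SERPINI2 and SPINK13. SERPINB3 and SERPINB4, which rose, hold no such letters in these windows, and SERPINB12 and SERPINB13, which did not pass, hold them, so the letters did not divide the genes that rose from those that did not pass. SERPINB7 has further windows, of which that at chr18:63777531-63777780 holds TGANTCA and that at chr18:63752807-63753056 does not. In all, 5 motifs were searched, and each stood in a larger share of member windows than of all windows. A STAT motif stood in 6.94% against 3.86%, and an NF-kB motif in 16.7% against 9.96%. The higher share is thus not particular to TGANTCA. The match is a description of these windows, not of binding.

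**Figure D2:**
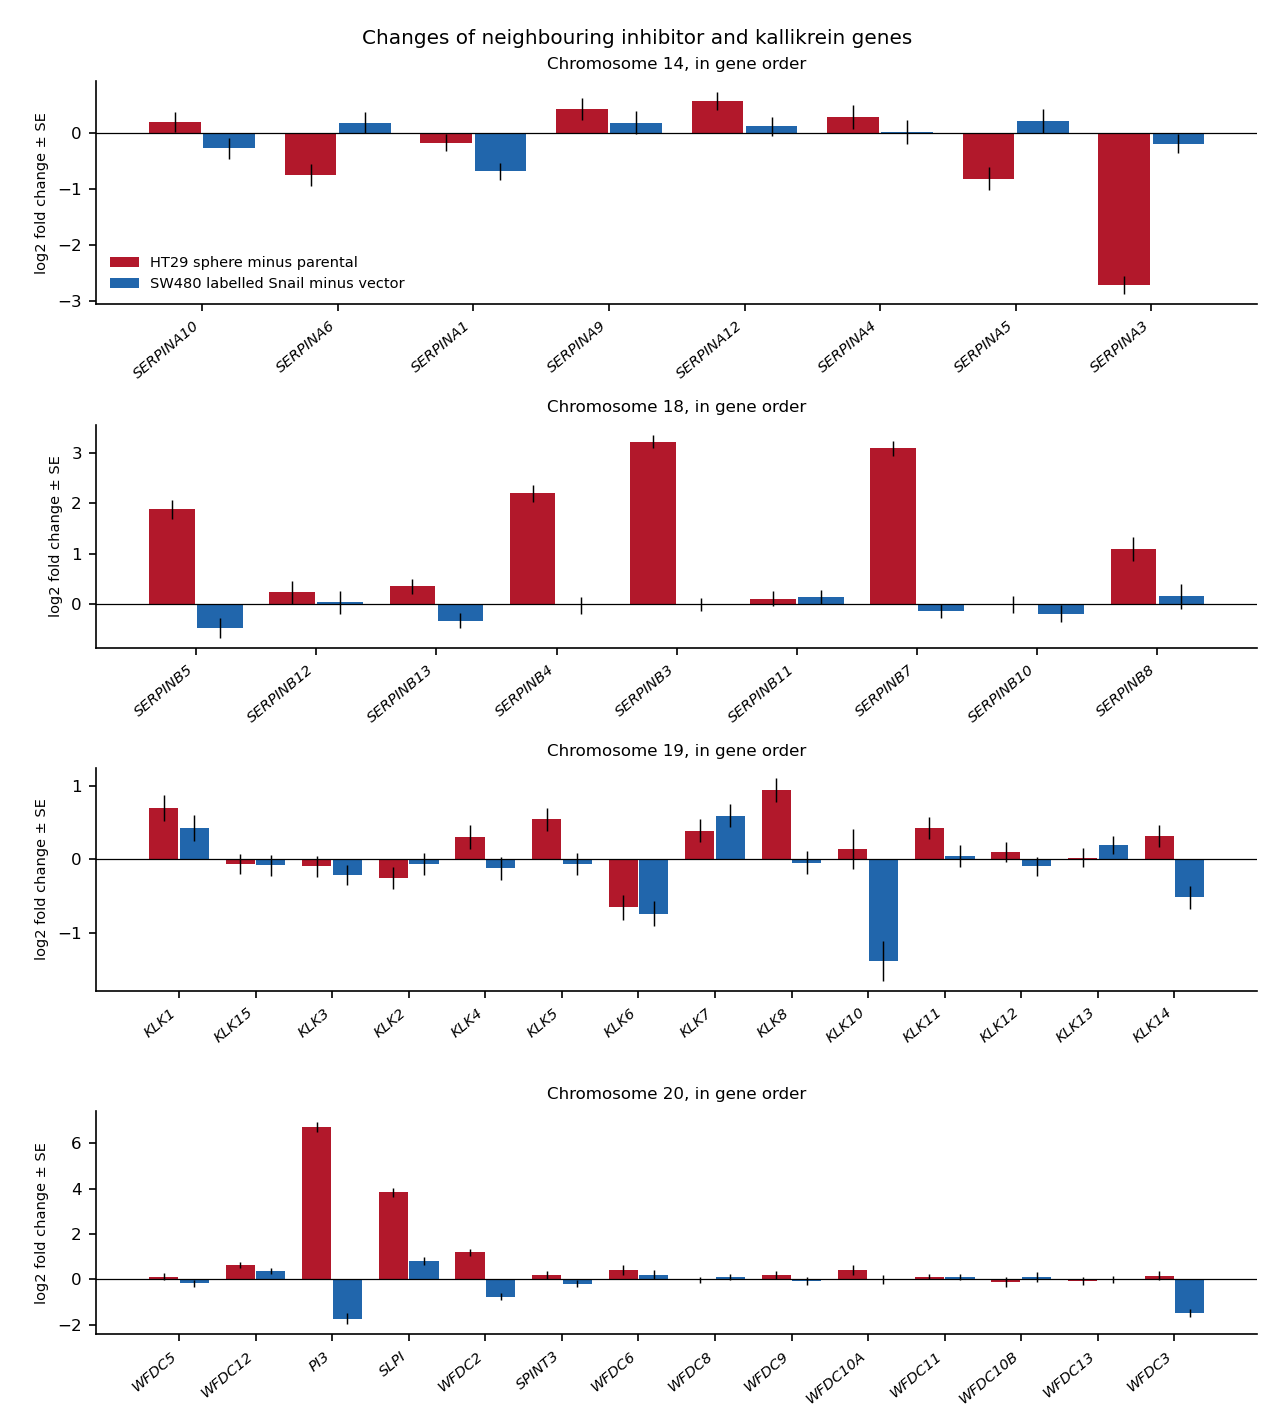
Inhibitor and kallikrein genes in their order along 4 chromosomes, for HT29 spheres minus parental cells and for the line labelled Snail minus the vector line; bars are log2 differences and lines their SE. On chromosome 18, 5 of 9 neighbours rose in spheres and none passed in SW480, whereas on chromosome 14, 3 of 8 SERPINA neighbours fell in spheres and 1 rose.

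SERPINB1, which inhibits neutrophil elastase, cathepsin G and proteinase 3 inside the cell and lies on chromosome 6 beside SERPINB9, fell. Its log2 levels were 9.37 and 9.34 in spheres, against 11.04 and 11.37 in parental cells. All 4 arrays were well above the array medians and the groups did not overlap, with a log2 difference of -1.85 ± 0.14 (SE, adjusted p = 7.9e-06, limma), or 3.60-fold lower. Of its 3 dimmer probe sets, the log2 differences were -1.73, -2.48 and, in the opposite direction, 0.50. The last, at a mean log2 level of 6.17, passed as well (adjusted p = 0.0233, limma over probe sets). SERPINB9, an inhibitor of granzyme B, had log2 levels of 7.84 and 8.05 in spheres, against 8.08 and 8.13 in parental cells. Its difference of -0.16 (log2, adjusted p = 0.425, limma) did not pass. Both dimmer SERPINB9 probe sets, at mean log2 levels of 5.44 and 4.88, rose by 0.86 and 0.43 (log2). These passed in a limma fit over probe sets (adjusted p = 0.00218 and 0.0479), so the reading for the gene depends on the probe set.

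Among secreted serpins, SERPINE2, or protease nexin 1, an inhibitor of thrombin, urokinase and plasmin, had log2 levels of 11.86 and 11.84 in spheres, against 8.79 and 8.36 in parental cells. It rose by 3.28 ± 0.15 (log2, SE, adjusted p = 5.13e-07, limma), or 9.72-fold, with no overlap, and a dimmer probe set gave 1.04. SERPINH1, the collagen chaperone HSP47 of the endoplasmic reticulum, rose by 0.50 ± 0.13 (log2, SE, adjusted p = 0.014, limma). Its log2 levels were 9.44 and 9.29 in spheres, against 8.91 and 8.81 in parental cells, and the call was lost without sphere array 1 (0.42, adjusted p = 0.101) or parental array 2 (0.45, adjusted p = 0.052). Fibroblast markers were above every array median for 5 of 6 genes in spheres (COL1A1, COL1A2, DCN, LUM and PDGFRB) and 3 of 6 in parental cells (COL1A1, DCN and PDGFRB), at a mean log2 level per array of 6.28 to 6.39 in spheres and 5.56 in parental cells, and their part in these values was not tested. The other 7 genes outside clades A and B did not pass in spheres. SERPINF1, an anti-angiogenic serpin without inhibitory activity, had log2 levels of 5.61 and 5.71 in spheres, against 5.61 and 5.41 in parental cells, close to the array medians in all 4.

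Clade A serpins are mostly plasma proteins of the liver, and in spheres 1 rose, 3 fell and 5 did not pass. SERPINA3, alpha-1-antichymotrypsin, an acute-phase inhibitor of cathepsin G, had log2 levels of 5.63 and 5.61 in spheres, against 8.59 and 8.06 in parental cells. Both sphere arrays were close to the array medians, and the log2 difference was -2.71 ± 0.17 (SE, adjusted p = 2.07e-06, limma), or 6.52-fold lower. SERPINA5, the protein C inhibitor, had log2 levels of 7.44 and 7.46 in spheres, against 7.96 and 8.55 in parental cells, and fell by 0.81 ± 0.21 (log2, SE, adjusted p = 0.0137, limma). SERPINA6, which carries corticosteroids in plasma, had log2 levels of 4.66 and 4.96 in spheres, against 5.29 and 5.83 in parental cells, and fell by 0.74 ± 0.19 (log2, SE, adjusted p = 0.0126, limma). The calls of these smaller falls were lost with some arrays left out. Without parental array 2 the log2 differences were -0.51 for SERPINA5 and -0.47 for SERPINA6, and without sphere array 1 they were -0.80 and -0.59. The SERPINA5 call was also lost without sphere array 2, at -0.82. Without a sphere array the SERPINA5 value thus stayed close to that on all arrays, and the call was lost with fewer arrays. SERPINA1, alpha-1-antitrypsin, had log2 levels of 12.27 and 12.31 in spheres, against 12.27 and 12.65 in parental cells, and its difference of -0.17 (log2, adjusted p = 0.439, limma) did not pass. SERPINA12, the adipokine vaspin, named after its values were seen, rose by 0.57 (log2, adjusted p = 0.0234, limma) while below all array medians, a call lost without parental array 2 (0.37, adjusted p = 0.138), sphere array 1 (0.53, adjusted p = 0.124) or sphere array 2 (0.62, adjusted p = 0.068). In spheres, 3 of 6 hepatocyte markers were above every array median (APOA1, APOH and TTR), and 2 of 6 were in parental cells (APOH and TTR). Their mean log2 level per array was 6.12 to 6.22 in spheres and 5.93 to 6.01 in parental cells. ALB, of the same list, averaged 3.53 in spheres and 3.52 in parental cells. The part of these markers in the clade A values was not tested.

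Of 6 Kazal inhibitors 1 rose and 1 fell in spheres, and of 3 Kunitz inhibitors 1 rose. SPINK1, the pancreatic secretory trypsin inhibitor, had log2 levels of 10.14 and 10.35 in spheres, against 11.41 and 11.08 in parental cells. It fell by 0.99 ± 0.16 (log2, SE, adjusted p = 0.000715, limma), and its groups did not overlap. SPINT1 (HAI-1), a membrane inhibitor of matriptase and of the activator of hepatocyte growth factor, had log2 levels of 11.92 and 11.65 in spheres, against 10.84 and 11.14 in parental cells, and rose by 0.80 ± 0.15 (log2, SE, adjusted p = 0.00231, limma). SPINT2 (HAI-2), its relative, had log2 levels of 12.52 and 12.52 in spheres, against 12.18 and 12.30 in parental cells, a difference of 0.28 (log2, adjusted p = 0.113, limma) that did not pass, except with a trended robust variance (adjusted p = 0.021). SPINK13, named after its values were seen, rose by 0.50 (log2, adjusted p = 0.0232, limma) below all array medians, a call lost with array weights (adjusted p = 0.055) or without parental array 1 (0.53, adjusted p = 0.052), parental array 2 (0.48, adjusted p = 0.079) or sphere array 1 (0.36, adjusted p = 0.178). The other 4 SPINK genes and SPINT3 did not pass.

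Of the 14 kallikreins, 3 rose, 1 fell and 10 did not pass in spheres. KLK6, a trypsin-like kallikrein also known as neurosin, had log2 levels of 11.28 and 11.26 in spheres, against 12.19 and 11.65 in parental cells. It fell by 0.65 ± 0.17 (log2, SE, adjusted p = 0.013, limma), a call lost without parental array 1 (-0.38, adjusted p = 0.053), sphere array 1 (-0.66, adjusted p = 0.064) or sphere array 2 (-0.64, adjusted p = 0.062). KLK8, known as neuropsin and named after its values were seen like KLK1 and KLK5, rose by 0.94 (log2, adjusted p = 0.00115, limma), with log2 levels of 7.96 and 7.92 in spheres, against 6.81 and 7.19 in parental cells. KLK1, tissue kallikrein, rose by 0.70 (log2, adjusted p = 0.0128) and KLK5, an activator of other skin kallikreins, by 0.54 (log2, adjusted p = 0.0216, limma), while KLK5 lay below all array medians on all 8 arrays. The KLK1 call was lost without parental array 1 (0.66, adjusted p = 0.060) or sphere array 2 (0.40, adjusted p = 0.091). The KLK5 call was lost with array weights (adjusted p = 0.055) or without parental array 2 (0.47, adjusted p = 0.093), sphere array 1 (0.54, adjusted p = 0.096) or sphere array 2 (0.55, adjusted p = 0.080). KLK10 had log2 levels of 10.96 and 10.82 in spheres, against 11.28 and 10.22 in parental cells, and it was the only member whose partner arrays lay at least 2-fold apart, in the parental pair. Its groups overlapped, with a log2 difference of 0.14 (adjusted p = 0.745, limma) that was 0.67 (adjusted p = 0.010) without parental array 1 and -0.39 (adjusted p = 0.085) without parental array 2. KLK7, a chymotrypsin-like kallikrein of skin, had log2 levels of 6.46 and 6.64 in spheres, against 6.22 and 6.08 in parental cells, and its brightest probe set did not pass (0.39, adjusted p = 0.0861), whereas a second probe set gave 1.07 (log2, adjusted p = 0.000888 in a fit over probe sets).

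**Figure D3:**
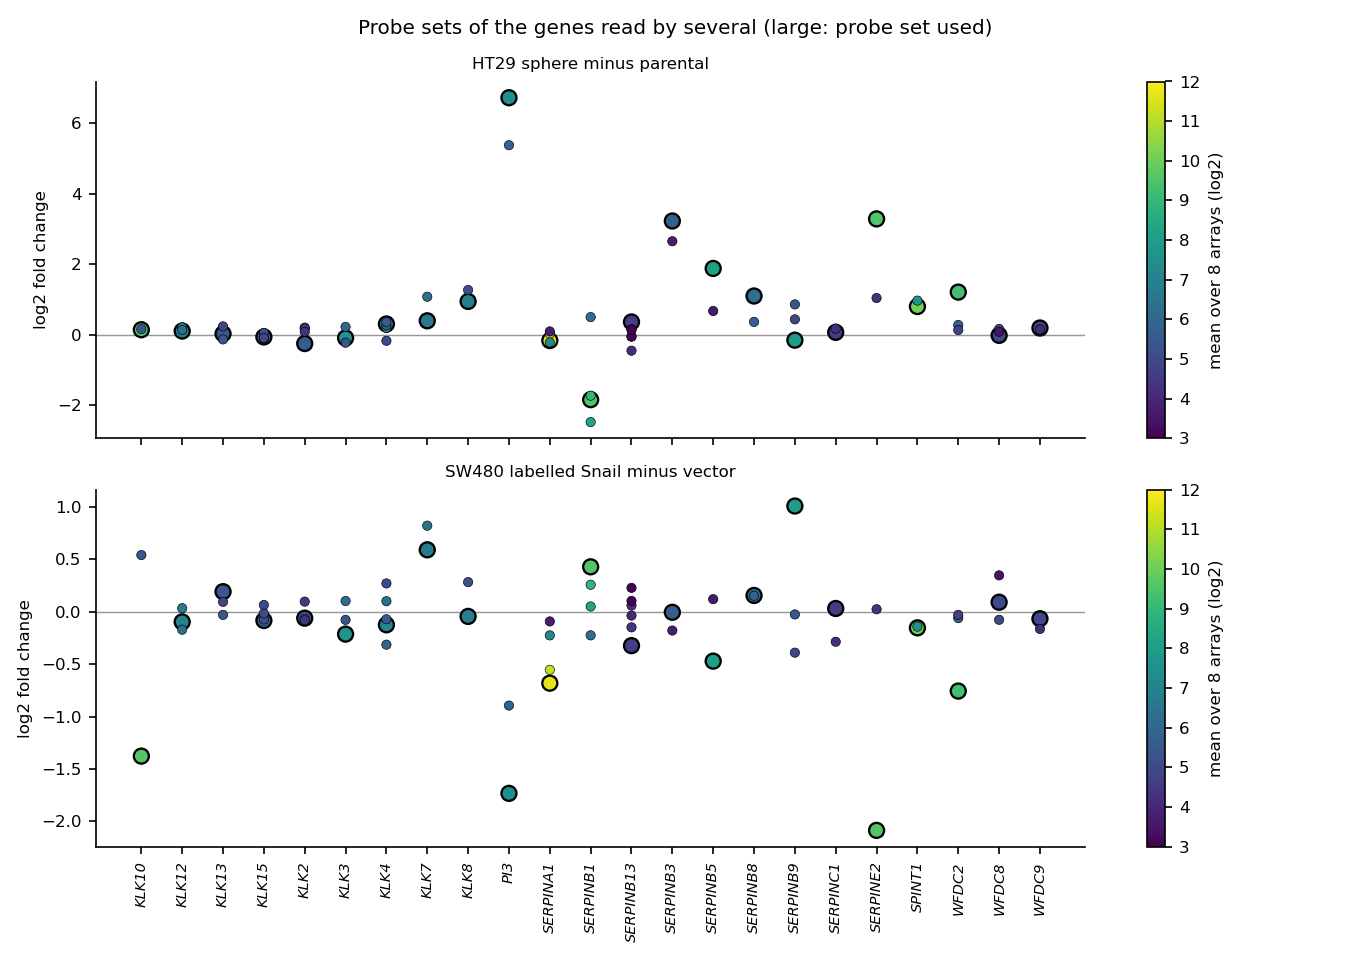
Log2 difference of every probe set of the 23 members read by several, for HT29 spheres minus parental cells and the line labelled Snail minus the vector line; the large point is the brightest probe set, which stands for the gene, and colour gives the mean log2 level over the 8 arrays. SERPINB1 has a dim probe set at 0.50 against -1.85 for its brightest, and KLK10 in SW480 one at 0.54 against -1.38.

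On the SW480 arrays labelled Snail, 3 of the 66 genes rose, 12 fell and 51 did not pass against the vector line. Over all genes 16.2% passed, 8.91% having risen and 7.34% fallen, against rises in 4.55% and falls in 18.2% of these genes, and the median log2 difference was -0.03 over the 66 and 0.01 over all genes. At least 2-fold, 1 rose and 5 fell, against 1.92% and 1.4% of all genes. Array values did not overlap for 34 of the 66 (51.5%), against 60.4% of all genes. The serpins outside clades A and B gave 5 of the 12 falls, from 9 genes with a median log2 difference of -0.55, and none of them rose. The count of falls was 6 without Snail array 1 and 7 without vector array 1, and the count of rises was 1 without vector array 1 or Snail array 2.

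SERPINE2 had log2 levels of 7.79 and 7.88 in the line labelled Snail, against 9.89 and 9.94 in the vector line. All 4 arrays were above the array medians, the groups stood apart, and the log2 difference was -2.09 ± 0.15 (SE, adjusted p = 3.19e-05, limma), or 4.25-fold lower, although a dimmer probe set, at a mean log2 level of 4.32, gave 0.02. SERPINH1 had log2 levels of 10.08 and 10.05 in the line labelled Snail, against 11.55 and 11.36 in the vector line, and fell by 1.39 ± 0.13 (log2, SE, adjusted p = 0.000149, limma). SERPINI1, or neuroserpin, an inhibitor of tissue plasminogen activator, had log2 levels of 5.98 and 5.88 in the line labelled Snail, against 6.96 and 6.78 in the vector line, and fell by 0.93 ± 0.13 (log2, SE, adjusted p = 0.00112, limma). None of these 3 overlapped between the groups. SERPINF1 had log2 levels of 9.29 and 9.20 in the line labelled Snail, against 9.91 and 9.99 in the vector line, and fell by 0.71 ± 0.13 (log2, SE, adjusted p = 0.0048, limma). SERPIND1, heparin cofactor II, completed the 5 with a difference of -0.55 (log2, adjusted p = 0.0207, limma) below all array medians, and it no longer passed (-0.45 to -0.64) once any 1 SW480 array was dropped.

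Of the WAP genes, PI3 had log2 levels of 4.79 and 5.37 in the line labelled Snail, against 6.85 and 6.76 in the vector line. It fell by 1.73 ± 0.24 (log2, SE, adjusted p = 0.0011, limma) to below the array medians, and its second probe set gave -0.89. WFDC3 had log2 levels of 5.96 and 6.37 in the line labelled Snail, against 7.53 and 7.76 in the vector line, and fell by 1.48 ± 0.19 (log2, SE, adjusted p = 0.000687, limma). SLPI went the other way, with log2 levels of 7.64 and 8.08 in the line labelled Snail, against 6.97 and 7.10 in the vector line. Its rise of 0.82 ± 0.18 (log2, SE, adjusted p = 0.0124, limma) was lost without vector array 1 (0.75, adjusted p = 0.083) or Snail array 2 (0.60, adjusted p = 0.114). WFDC2 had log2 levels of 8.43 and 8.71 in the line labelled Snail, against 9.40 and 9.26 in the vector line, and fell by 0.76 ± 0.15 (log2, SE, adjusted p = 0.00792, limma). That call was lost without vector array 1 (-0.69, adjusted p = 0.066) or Snail array 1 (-0.62, adjusted p = 0.076), and the dimmer WFDC2 probe sets stood at -0.06 and -0.03.

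SERPINB9 was the 1 clade B serpin of 11 past the threshold, with log2 levels of 8.17 and 8.39 in the line labelled Snail, against 7.24 and 7.30 in the vector line. Its brightest probe set rose by 1.01 ± 0.14 (log2, SE, adjusted p = 0.000977, limma) without overlap, whereas its dimmer probe sets gave -0.02 and -0.39, so the direction for the gene depends on the probe set. The SERPINB genes that rose in spheres did not pass: SERPINB3 had log2 levels of 4.99 and 5.14 in the line labelled Snail, against 4.99 and 5.15 in the vector line, and SERPINB5 had 6.29 and 6.04 in the line labelled Snail, against 6.59 and 6.68 in the vector line (log2 difference -0.47, adjusted p = 0.125, limma, but 0.044 with array weights). SERPINA1 was the 1 clade A serpin that passed, with log2 levels of 10.58 and 10.68 in the line labelled Snail, against 11.40 and 11.23 in the vector line. It fell by 0.68 ± 0.15 (log2, SE, adjusted p = 0.012, limma), a call lost without vector array 1 (-0.60, adjusted p = 0.095), Snail array 1 (-0.63, adjusted p = 0.086) or Snail array 2 (-0.73, adjusted p = 0.056). None of the 6 SPINK and 3 SPINT genes passed, SPINT2 having log2 levels of 11.16 and 11.08 in the line labelled Snail, against 10.82 and 10.76 in the vector line.

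Kallikreins gave 1 rise and 3 falls of 14. KLK10 had log2 levels of 7.58 and 7.77 in the line labelled Snail, against 9.10 and 8.999 in the vector line. It fell by 1.38 ± 0.27 (log2, SE, adjusted p = 0.00699, limma) without overlap, a call lost without Snail array 1 (-1.28). A dim probe set, at a mean log2 level of 5.45, gave 0.54 and passed (adjusted p = 0.0376, limma over probe sets). The direction for KLK10 thus depends on the probe set. KLK6 had log2 levels of 10.23 and 10.28 in the line labelled Snail, against 10.97 and 11.03 in the vector line. It fell by 0.74 ± 0.17 (log2, SE, adjusted p = 0.014, limma), and the call was lost when any 1 of the 4 SW480 arrays was left out, with values of -0.71 to -0.77. KLK7 had log2 levels of 7.15 and 7.33 in the line labelled Snail, against 6.46 and 6.83 in the vector line, and rose by 0.59 ± 0.16 (log2, SE, adjusted p = 0.028, limma). That call was lost without vector array 1 (0.40), Snail array 1 (0.68) or Snail array 2 (0.50). A dimmer second KLK7 probe set gave 0.82 (log2, adjusted p = 0.0109, limma over probe sets). KLK14, named after its values were seen, was the third kallikrein that fell, by 0.51 (log2, adjusted p = 0.0436, limma). Its call was lost when any 1 of the 4 SW480 arrays was dropped (-0.42 to -0.61) and with the most variable probe set of each gene (adjusted p = 0.052). Squamous markers, in whose tissue several kallikreins act, were above every array median for 2 of 5 genes in both SW480 lines (KRT5 and KRT10). Their mean log2 level per array was 7.81 to 7.82 in the line labelled Snail and 7.37 to 7.41 in the vector line. KRT5 alone averaged 12.79 in the line labelled Snail and 11.90 in the vector line, so it weighs heavily in those means. The part of these markers in the kallikrein values was not tested.

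The letters of the Snail E-box, CAGGTG, which Snail proteins are known to bind, stood in 17.5% of all windows of 250 bases before a start and in 17 of 72 member windows (23.6%), belonging to 16 genes. Of the genes that fell on the arrays labelled Snail, KLK6, SERPINA1, SERPINH1, SERPINI1 and WFDC2 were among the 16. Most of the 16 did not pass there, namely KLK4, KLK11, KLK15, SERPINA4, SERPINA12, SERPINB5, SERPINB13, SERPINI2, SPINK1 and SPINT1. KLK7, which rose on those arrays, was among the 16 as well. The windows of KLK6, at chr19:50969592-50969841 (minus strand), and of SERPINH1, at chr11:75562003-75562252 (plus strand), are shown as members that passed in both lines. Capitals mark CAGGTG in KLK6 and, in SERPINH1, a heat shock element (GAANNTTCNNGAA, searched on both strands, present in 0.441% of all windows and in 1 of the 72), the motif bound by heat shock factors (RefSeq, GRCh38.p14, 5′ to 3′ on the strand of the gene).
KLK6: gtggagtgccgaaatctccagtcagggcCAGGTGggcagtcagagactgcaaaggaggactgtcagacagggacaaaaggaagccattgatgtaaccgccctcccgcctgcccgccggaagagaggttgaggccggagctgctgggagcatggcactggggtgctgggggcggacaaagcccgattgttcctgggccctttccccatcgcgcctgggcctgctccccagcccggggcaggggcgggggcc
SERPINH1: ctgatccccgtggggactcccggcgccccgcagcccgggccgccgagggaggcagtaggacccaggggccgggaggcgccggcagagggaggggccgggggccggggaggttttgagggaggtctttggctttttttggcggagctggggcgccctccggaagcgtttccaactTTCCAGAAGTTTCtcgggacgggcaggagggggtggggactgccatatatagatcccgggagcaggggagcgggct
SERPINH1 has a second annotated start, whose window holds the E-box letters. As above, a match describes letters in a window, and each of the 5 motifs searched stood in a larger share of member windows.

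The log2 differences in HT29 and SW480 come from separate arrays and could be set against each other, and limma's test of the difference (spheres minus parental, minus the line labelled Snail minus vector) found 17 of the 66 genes higher and 6 lower, where 27.5% of all genes passed, 10.6% higher and 16.9% lower. At least 2-fold, 12 were higher and 4 lower, against 4.62% and 9.7% of all genes. PI3, SERPINE2, WFDC2 and SERPINH1 rose in spheres and fell on the arrays labelled Snail. For PI3 the difference of differences was 8.45 ± 0.34 (log2, SE, adjusted p = 4.11e-07, limma) and for SERPINE2 it was 5.37 (log2, adjusted p = 4.11e-07, limma). SLPI was the 1 gene that rose in both, and its difference of differences was 3.01. KLK6 was the 1 that fell in both, and here the difference of differences, 0.09 (log2, adjusted p = 0.831, limma), did not pass. Of the other members, 12 rose and 5 fell in spheres alone past the threshold, 2 rose and 7 fell in SW480 alone, and 34 passed in neither.

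**Figure D4:**
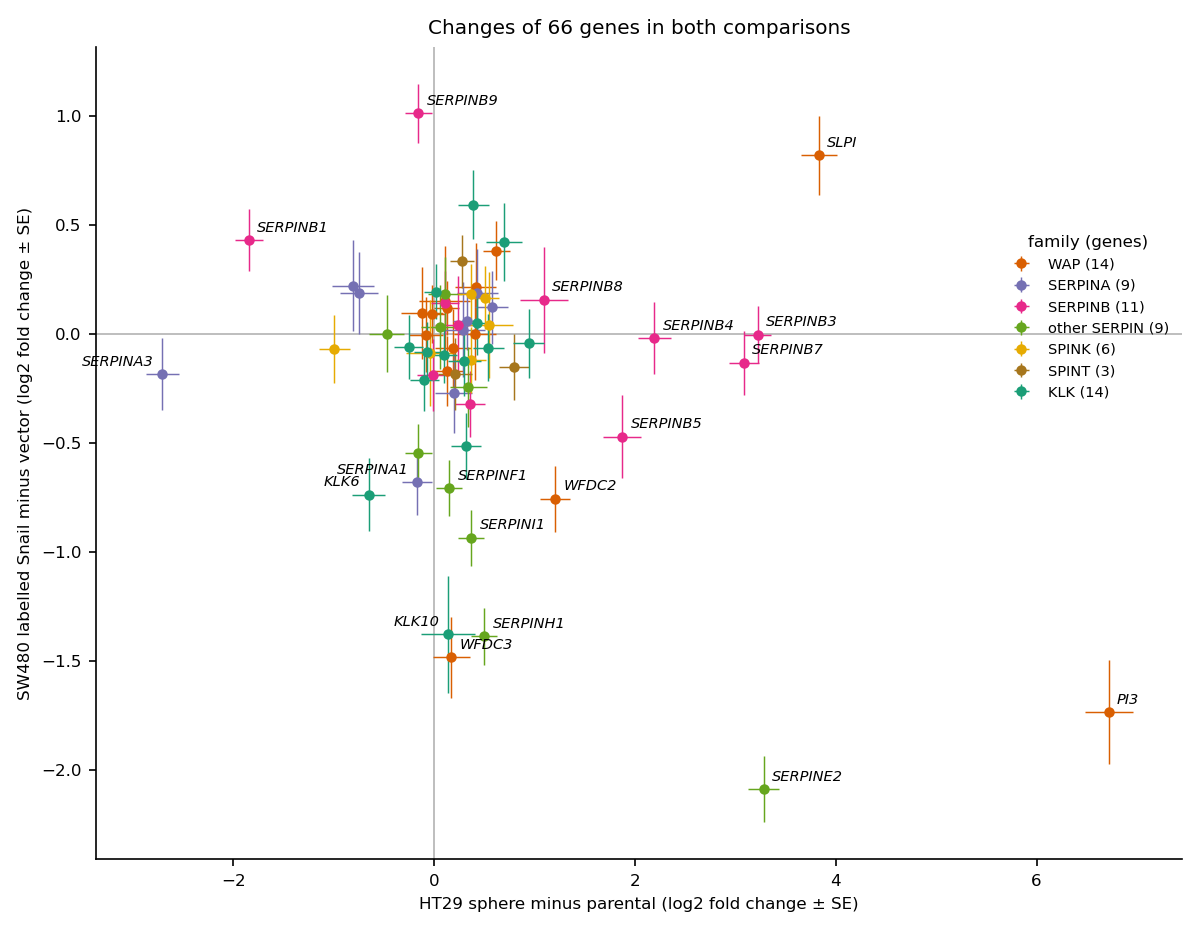
Log2 difference in HT29 spheres minus parental cells (horizontal axis) and in the line labelled Snail minus the vector line (vertical axis), 1 point for each of the 66 genes, with colour for the family and lines for the SE. PI3 (6.72 and -1.73) and SERPINE2 (3.28 and -2.09) lie at the lower right, and SLPI (3.83 and 0.82) at the upper right.

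Between the lines themselves, 16 members were higher and 18 lower in SW480 vector cells than in HT29 parental cells, and 32 did not pass, where 46.1% of all genes passed, 22.6% higher and 23.5% lower. At least 2-fold, 6 were higher and 12 lower, against 7.32% and 11.6% of all genes. This comparison shares the parental arrays with the spheres and the vector arrays with the line labelled Snail, so its values are given beside theirs and not set against them. The lines also differ in the stable vector, and in the DMEM used, so line, vector and medium cannot be told apart. CDH17 averaged 4.62 and KRT20 4.42 (log2) in SW480 vector cells, against 5.08 and 11.37 in HT29 parental cells.

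SPINK1 had log2 levels of 3.60 and 3.69 in SW480 vector cells, against 11.41 and 11.08 in HT29 parental cells, a difference of -7.60 ± 0.16 (log2, SE, adjusted p = 4.09e-10, limma), or 194-fold lower. The SW480 arrays were all below the array medians, so the fold depends on the background of the array. KLK11, a trypsin-like kallikrein, had log2 levels of 5.30 and 5.30 in SW480 vector cells, against 10.40 and 10.56 in HT29 parental cells, a difference of -5.18 ± 0.15 (log2, SE, adjusted p = 2.32e-09, limma), and its SW480 levels were likewise below the array medians. SPINT1 and SPINT2 were lower as well, SPINT1 at 8.68 and 8.84 in SW480 vector cells, against 10.84 and 11.14 in HT29 parental cells (log2 difference -2.23 ± 0.15, SE, adjusted p = 8.58e-07, limma), and SPINT2 at 10.82 and 10.76, against 12.18 and 12.30 in HT29 parental cells (-1.46 ± 0.12, SE, adjusted p = 4.11e-06, limma). Clade A gave 5 lower genes of 9, with SERPINA5 at -2.53 and SERPINA3 at -2.38 (log2), and SERPINA1, at -1.15 ± 0.15 (log2, SE, adjusted p = 0.000104, limma), still far above the array medians in both lines. SERPINB1 (-2.57 ± 0.14) and SERPINB5 (-2.27 ± 0.19), both log2 with SE, were lower too, and so were KLK10 (-1.70), KLK6 (-0.92) and SLPI (-0.94). A dimmer SERPINB5 probe set, at a mean log2 level of 3.62, gave -0.01 and did not pass.

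The serpins outside clades A and B ran the other way, with 6 of 9 higher in SW480 vector cells and none lower. SERPINF1 had log2 levels of 9.91 and 9.99 in SW480 vector cells, against 5.61 and 5.41 in HT29 parental cells, a difference of 4.44 ± 0.13 (log2, SE, adjusted p = 2.46e-09, limma), or 21.7-fold against a level near the array medians. SERPINH1 had log2 levels of 11.55 and 11.36 in SW480 vector cells, against 8.91 and 8.81 in HT29 parental cells, a difference of 2.59 ± 0.13 (log2, SE, adjusted p = 1.03e-07, limma), or 6.02-fold. Neither gene overlapped between the lines. SERPINI1 (1.50), SERPINE2 (1.35), SERPING1, the complement C1 inhibitor (0.80), and SERPIND1 (0.72) were the others, all as log2 differences. SERPING1 averaged 5.32 in SW480 vector and 4.52 in HT29 parental cells, and SERPIND1 4.73 and 4.01, all below the array medians. A dimmer SERPINE2 probe set gave 0.05 (log2) and did not pass. Among WAP genes, WFDC3 was higher by 2.22 ± 0.19 and PI3 by 1.22 ± 0.24 (log2, SE). KLK7 was higher by 0.49 (log2, adjusted p = 0.0257, limma) on its brightest probe set and by 0.77 (log2, adjusted p = 0.00419, limma over probe sets) on the other. The call of the brightest was lost without parental array 2 (0.42) or vector array 2 (0.30). It was also lost with arrays centred on their medians (0.39, limma adjusted p = 0.069), with array weights (adjusted p = 0.052) and on its own 4 arrays (adjusted p = 0.054). SERPINB9, at -0.84 (log2) on its brightest probe set, was at 0.84 on another. With each array centred on its median, the count of higher members was 10 in place of 16, and it was 9 without vector array 2.

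**Figure D5:**
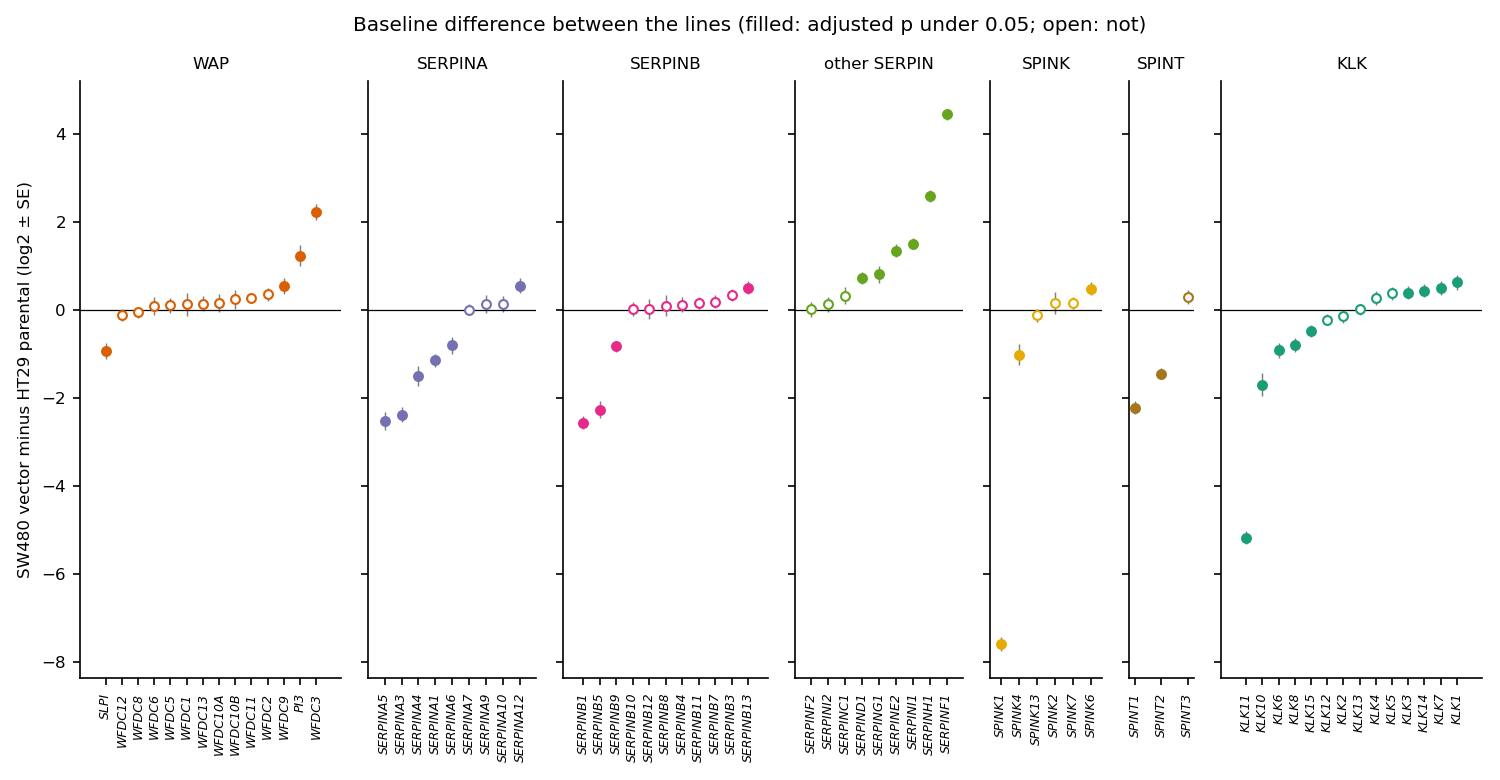
Log2 difference in SW480 vector minus HT29 parental cells for the 66 genes by family, with lines for the SE and filled points past adjusted p under 0.05. SPINK1 (-7.60) and KLK11 (-5.18) are at the low end and SERPINF1 (4.44) and SERPINH1 (2.59) at the high end.

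The proteases and receptors that these inhibitors meet were read from 5 gene lists. Over all genes 12.4% rose and 19% fell in spheres, 8.91% rose and 7.34% fell on the arrays labelled Snail, and 22.6% were higher and 23.5% lower between the lines. Several of the counts below lie near those shares. Of 13 measured genes of plasminogen activation and clotting, 5 rose and 1 fell in spheres (median log2 difference 0.31, against 0.04 over all genes), and 0 rose and 5 fell on the arrays labelled Snail (median -0.15, against 0.01). PLAUR, the urokinase receptor, averaged 11.90 ± 0.05 in spheres and 8.72 ± 0.25 in parental cells (log2, SD, n = 2 each), a rise of 3.18 ± 0.16 (SE, limma adjusted p = 7.69e-07). It averaged 8.28 ± 0.26 in the line labelled Snail and 9.61 ± 0.02 in the vector line (log2, SD, n = 2 each), and fell by 1.33 ± 0.16 (SE, limma adjusted p = 0.000602). SERPINE2, whose targets include urokinase, had both directions as well. F3, tissue factor, rose by 2.32 ± 0.16 and PLAU, urokinase, by 1.80 ± 0.13 in spheres (log2, SE). PLAT, tissue plasminogen activator, the target of SERPINI1, fell by 2.53 ± 0.14 on the arrays labelled Snail, and PROCR, the endothelial protein C receptor, by 1.34 ± 0.13 (log2, SE). In SW480 vector cells against HT29 parental cells, 5 of the 13 were higher and 3 lower, with PLAT higher by 3.94, PLAU higher by 2.05 and TFPI, the inhibitor of the tissue factor pathway, at -5.62 (log2).

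Of 16 cysteine cathepsins and cystatins, 9 rose and 2 fell in spheres (median log2 difference 0.57), and 3 rose and 5 fell on the arrays labelled Snail (median -0.14). CTSV, a cathepsin of the kind that SERPINB3 inhibits, rose by 3.56 ± 0.19 in spheres (log2, SE, adjusted p = 1.11e-06, limma). CST6, a skin cystatin, rose there by 2.18 ± 0.22 and CST3, cystatin C, by 1.38 ± 0.14 (log2, SE), while CST3 fell by 0.95 ± 0.14 and CTSK rose by 1.18 ± 0.22 on the arrays labelled Snail (log2, SE). Between SW480 vector and HT29 parental cells, 9 of the 16 were higher and 4 lower, with CST1 higher by 6.72 ± 0.13, CST7 higher by 5.88 ± 0.13 and CTSH at -4.64 ± 0.14 (log2, SE). Of 15 membrane serine proteases and genes of the hepatocyte growth factor system, 4 rose and 3 fell in spheres, 1 rose and 2 fell on the arrays labelled Snail, and 4 were higher and 7 lower in SW480 vector than in HT29 parental cells. PRSS8, prostasin, rose in spheres by 1.26 ± 0.16 and was at -4.50 ± 0.16 in SW480 vector against HT29 parental cells (log2, SE), a direction that its inhibitors SPINT1 and SPINT2 also had between the lines. ST14, matriptase, rose by 0.80 ± 0.14 and MET, the hepatocyte growth factor receptor, fell by 1.77 ± 0.13 on the arrays labelled Snail (log2, SE). None of 3 protease-activated receptors passed in any of these comparisons, and of 13 leukocyte and pancreatic serine proteases 1 rose and 1 fell in spheres, 2 rose and 3 fell on the arrays labelled Snail, and 4 were higher and 2 lower in SW480 vector than in HT29 parental cells. GZMB, granzyme B, the target of SERPINB9, averaged 5.48 ± 0.02 in the line labelled Snail and 7.19 ± 0.17 in the vector line (log2, SD, n = 2 each), and fell by 1.72 ± 0.13 (SE, limma adjusted p = 4.85e-05). PRSS2, a trypsin that SPINK1 inhibits, fell by 0.67 ± 0.18 in spheres (log2, SE, adjusted p = 0.0157, limma).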

How the data were processed

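The authors deposited log2 expression levels, for which the submitters' processing notes name RMA, and no further scaling was applied. Its version, its probe definitions and the set of arrays it was run on are not given in the sources. Of 54675 probe sets, 62 were controls, 41091 named 1 gene in the platform annotation, 1801 named several and 11721 were not named there. Each of 19775 genes was read by the probe set with the highest mean over the 8 arrays, so the choice of probe set can set a gene's value. The 66 genes were read by 110 probe sets, and 23 had several. Symbols were matched to RefSeq (GRCh38.p14), which also gave gene order and the windows before gene starts.

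limma 3.58.1 in R 4.3.3 fitted 1 mean per group to all 8 arrays, with 4 residual and 6.10 prior degrees of freedom. Tests were two-sided, with Benjamini-Hochberg adjustment over all 19775 genes and a threshold of 0.05. An exact permutation test of 2 against 2 arrays cannot go below p = 0.333 and was not used. With 200 simulated changed genes, 62.8% to 72.2% were recovered at a log2 change of 1 and 96.2% to 99.0% at 2, over the 3 contrasts between groups. In the data 3213 to 9116 genes passed in these contrasts, and the simulated noise was independent between genes. The adjustment depends on the share of changed genes, so the recovered shares describe the simulation and not these data. The number of arrays limits the precision. Genes named with values were PI3 and SLPI, the 8 largest rises and falls past the threshold without overlap in each contrast, the 4 largest each way in the difference of contrasts and the brightest of each family; exceptions are stated. The genes, lists and tests were chosen with earlier results of these data known. Alternatives covered the normalisation, the choice of probe set, dim genes, array weights, the variance model, the arrays fitted and each array left out. Figures were drawn with matplotlib 3.10.9.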

Additional observations from a re-analysis of the deposited data

Results flagged for a closer look

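For 20 genes named by the rule given above, the sphere minus parental difference in HT29 was unlike the SW480 difference, labelled Snail minus vector. For each, limma's test of that difference gave an adjusted p under 0.05. The values are sphere minus parental, minus labelled Snail minus vector, on the log2 scale. Among WAP inhibitors it was 8.45 for PI3, 3.01 for SLPI, 1.96 for WFDC2 and 1.65 for WFDC3. Among clade B serpins it was 3.23 for SERPINB3, 3.22 for SERPINB7, 2.35 for SERPINB5, 2.21 for SERPINB4, -1.17 for SERPINB9 and -2.28 for SERPINB1. Among clade A serpins it was -2.52 for SERPINA3, -1.03 for SERPINA5 and -0.93 for SERPINA6. Among other serpins it was 5.37 for SERPINE2, 1.89 for SERPINH1, 1.30 for SERPINI1 and 0.86 for SERPINF1. It was 1.51 for KLK10, 0.95 for SPINT1 and -0.93 for SPINK1. KLK8 (0.98) and KLK14 (0.83), named after their values were seen, also passed this test and are not counted in the 20. The counts of named genes in the next section do include genes named after their values were seen. Of these 20 calls, 16 held under every alternative tried, and those for KLK10, SERPINA5, SERPINA6 and SERPINB9 did not. With 2 arrays per group, no single array could be tested as standing apart from its group.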

How the results depend on the processing

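Of the named genes past the threshold, 14 of 23 kept the call in spheres under every alternative tried, 6 of 15 on the arrays labelled Snail and 22 of 27 between SW480 vector and HT29 parental cells. Calls were also gained: KLK7, KLK10, KLK11, KLK14, SERPINI1 and SPINT2 in spheres, KLK1, SERPINB1, SERPINB5, SPINT2 and WFDC12 on the arrays labelled Snail, and SERPINB3, SERPINB8 and WFDC2 between the lines each passed under at least 1 alternative. Between the lines KLK1, KLK7, KLK14 and SERPINA12 lost a call to a left-out array. SERPINA5 in spheres was also lost under quantile normalisation (-0.63, adjusted p = 0.0528, limma). With the mean of all probe sets of a gene, SERPINB9 turned to 0.38 in spheres (log2), a further gained call (adjusted p = 0.017, limma). It turned to 0.011 between the lines and to 0.18 in the difference of contrasts (log2), and it stood at 0.20 on the arrays labelled Snail without passing. Under that setting KLK10 (-0.42) and WFDC2 (-0.28) were lost there too, and SERPINA1 (-0.22) was lost with the most variable probe set. The count of genes that rose on the arrays labelled Snail, 3, was 6 without the dimmest 40% of genes, 6 with array weights, 5 with a trended robust variance and 5 when fitted on its own 4 arrays. The count higher in SW480 vector cells, 16, was 10 with each array centred on its median and 10 without the dimmest 40%. Leaving out 1 array gave 13 to 17 rises and 3 to 6 falls in spheres, 1 to 4 rises and 6 to 13 falls on the arrays labelled Snail, 9 to 16 higher and 17 to 18 lower in SW480 vector cells, and 14 to 19 higher and 4 to 6 lower for the difference. The causes were not tested.

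Same-numbered arrays did not deviate together over all genes (correlations of -0.06 to 0.06). A pairing that touched few genes would barely move these correlations, so they cannot decide whether the numbers pair the arrays. With the number as a replicate block, 17 rose and 6 fell in spheres, 3 rose and 11 fell on the arrays labelled Snail (KLK14 was lost, adjusted p = 0.057), 15 were higher and 18 lower in SW480 vector cells, and the difference gave 17 higher and 6 lower. Levels near the array medians limit what can be said of 24 genes that lay below every median throughout.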
